A study of Mus musculus with 2 samples.

Results

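The 9 genes described here, Drd1, Drd2, Ppp1r1b, Penk, Pdyn, Tac1, Isl1, Ebf1 and Foxp1, are genes of striatal projection neurons and of the transcription factors of these cells. They were chosen by earlier readings of the same 2 arrays, in which Drd1 lay among the genes that were higher in the Sox11-null embryo, and the question was whether Drd1 stood alone among them. The members are 9 of the 18193 genes with a probe set that the platform annotation ties to a single gene, and 23 such probe sets represent them. The difference of Drd1 by the brighter of its 2 probe sets is therefore a description of why it was chosen.

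The null sample was RNA labelled as cerebral cortex of 1 Sox11(-/-) embryo, and it was set against that of 1 Sox11(+/+) littermate. Both embryos were taken at E17.5, late in embryonic development, from a cross of Sox11(+/-) parents on a mixed C57BL/6 and 129 background, and neither received a treatment. The product of Sox11 is a SoxC transcription factor of immature neurons and many other embryonic cells, and its loss here was germline. Each RNA sample was hybridised to 1 Affymetrix mouse expression array, so each genotype has 1 value per probe set, no variance between embryos and no test. A difference below is one between these 2 samples, and differences are log2 signals, Sox11 null minus wild type.

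The striatum lies below the cortex in the ventral forebrain, and its output neurons are GABAergic cells born in the lateral ganglionic eminence. Neurons of the direct pathway carry the dopamine receptor D1 (Drd1) and make dynorphin (Pdyn) and substance P (Tac1). Neurons of the indirect pathway carry the dopamine receptor D2 (Drd2) and make enkephalin (Penk). Both kinds use DARPP-32 (Ppp1r1b), a phosphatase inhibitor that passes on dopamine signals, and Foxp1, while Isl1 and Ebf1 act in the development of direct pathway neurons. None of the 9 genes belongs to the striatum alone. Cortical projection neurons express Foxp1, deep cortical neurons carry D1 receptors, some cortical neurons make enkephalin or tachykinin, pituitary cells express Drd2 and Isl1, and Ebf1 acts in B cells and olfactory neurons.

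The Sox11 probe sets were all lower in the null sample, at 16.4% to 47.8% of the wild-type signal over 6 probe sets. Which of these probe sets the deletion removes was not looked up here, so they do not settle the genotype by themselves. The embryos also differed in sex-linked genes. Xist was at 155 in the null sample and 17505 in the wild-type sample, and the Y-linked Uty was at 617 in the null sample and 21.8 in the wild-type sample. The genotype and this difference cannot be told apart in any value below. Both samples held high signals of tissue outside the brain. The 8 skeletal muscle markers summed to 121636 in the null sample and 120866 in the wild-type sample, so the 9 genes were read in samples that were not cortex alone. In such bulk RNA, fewer cells of a type and less RNA per cell cannot be told apart.

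The promoter windows of Drd1 and Foxp1 are shown because Drd1 is the gene the question turns on and Foxp1 is the member whose windows held a match to the letters searched. Each window runs from 250 bases before to 50 after a gene start in the RefSeq annotation of GRCm38.p6, and 7 of the 9 members had 12 windows there, with none for Penk and Ppp1r1b. The letters AACAAT and AACAAAG, a core that Sox proteins bind, were searched on both strands. Capitals mark a match. The first pair belongs to Drd1 (chr13:54054731-54055030 and chr13:54055609-54055908, minus strand), and the second pair to Foxp1 (chr6:99266466-99266765 and chr6:99520944-99521243, minus strand).
Drd1 start a: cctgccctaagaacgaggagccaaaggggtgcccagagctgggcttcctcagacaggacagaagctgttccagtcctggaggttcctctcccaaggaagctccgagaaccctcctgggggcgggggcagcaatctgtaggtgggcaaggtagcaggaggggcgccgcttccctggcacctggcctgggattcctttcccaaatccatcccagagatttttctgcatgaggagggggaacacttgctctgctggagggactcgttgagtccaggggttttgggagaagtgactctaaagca
Drd1 start b: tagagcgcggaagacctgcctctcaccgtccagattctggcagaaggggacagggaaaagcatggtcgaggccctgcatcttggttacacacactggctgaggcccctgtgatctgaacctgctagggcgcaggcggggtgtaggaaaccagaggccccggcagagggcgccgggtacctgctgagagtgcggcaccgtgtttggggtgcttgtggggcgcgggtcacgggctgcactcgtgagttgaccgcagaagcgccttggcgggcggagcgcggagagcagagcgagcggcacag
Foxp1 start a: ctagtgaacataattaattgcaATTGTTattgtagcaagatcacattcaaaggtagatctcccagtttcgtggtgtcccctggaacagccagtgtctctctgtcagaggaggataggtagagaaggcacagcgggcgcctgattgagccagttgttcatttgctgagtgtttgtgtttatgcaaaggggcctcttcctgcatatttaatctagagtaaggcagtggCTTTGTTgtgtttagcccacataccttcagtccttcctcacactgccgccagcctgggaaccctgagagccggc
Foxp1 start b: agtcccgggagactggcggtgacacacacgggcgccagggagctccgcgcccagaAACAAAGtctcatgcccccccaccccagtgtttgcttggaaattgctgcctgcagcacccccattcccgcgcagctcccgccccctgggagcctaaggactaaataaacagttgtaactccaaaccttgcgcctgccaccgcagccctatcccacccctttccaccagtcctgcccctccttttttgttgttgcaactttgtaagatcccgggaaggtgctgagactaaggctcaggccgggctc

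Neither Drd1 window held a match. One Foxp1 window held both spellings, each read on the opposite strand (ATTGTT and CTTTGTT), and the other held AACAAAG. Of the 12 windows 2 held a match to either spelling, against 15.7% of all 32851 windows there. AACAAT alone was in 10.7% of all windows and AACAAAG in 5.85%. The third Foxp1 window (chr6:99028249-99028548), not shown, held none. A match describes the letters in these windows and is no binding site by itself.

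The 2 probe sets of Drd1 gave different answers. With 1456051_at, the brighter one, Drd1 was at 187 in the null sample and 76.8 in the wild-type sample, a log2 difference of 1.30 or 2.46-fold. With 1455629_at it was at 91.8 in the null sample and 97.1 in the wild-type sample, a difference of -0.062. The null sample was thus high with the first probe set and level with the wild-type sample with the second. The 2 differences lay 1.36 apart on the log2 scale. There were 3692 genes with exactly 2 such probe sets and the brighter one measured, and their median gap was 0.30. Of these, 89 (2.41%) had probe sets as far apart as those of Drd1 or farther. In 8 of the 89 the dimmer one was under the floor on both arrays. The 3692 genes lay at any signal level, while Drd1 was dim and was chosen for the value of its brighter probe set. The share therefore does not tell how unusual the gap of Drd1 was.

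Drd1 was dim with both probe sets. Measured, here, means that 1 or both arrays gave a signal at or above their own median, 177.4 for the null array and 177.5 for the wild-type array. Values under the 25th percentile (52.5 on the null array and 52.9 on the wild-type array) were raised to it. Drd1 reached the median on the null array only, and there by a small margin. A gene that enters in this way is higher in the null sample by construction. Of the 320 measured genes that reached the median on the null array only, all were above 0, 142 (44.4%) were at least 1.5-fold higher and 52 (16.2%) at least 2-fold higher. Among all 12390 measured genes, 0.573% were at least 2-fold higher in the null sample. There were 25 measured genes with a difference at least as high as that of Drd1, itself included, and all 25 lay among the 4130 with the lowest mean signal, when measured genes were split by mean signal into 3 groups of that size. In that lowest group the central 95% of differences ran from -0.94 to 0.82, against -0.49 to 0.57 in the middle group and -0.46 to 0.45 in the highest.

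Drd1 was not the only gene 2-fold higher whose other probe sets were within 1.5-fold. Of the 71 measured genes at least 2-fold higher in the null sample, 33 had another single-gene probe set. In 18 of the 33, Drd1 among them, all other probe sets were within 1.5-fold, and in 12 at least 1 other probe set was also 1.5-fold higher. In 7 of the 18, unlike Drd1, the other probe sets were under the floor on both arrays, where the difference is 0 by construction. Another measured probe set, which Drd1 lacks, was present for 14 of the 71 genes, and of these 7 had all such probe sets within 1.5-fold, 4 had 1 or more higher and 3 had 1 or more lower.

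**Figure D1:**
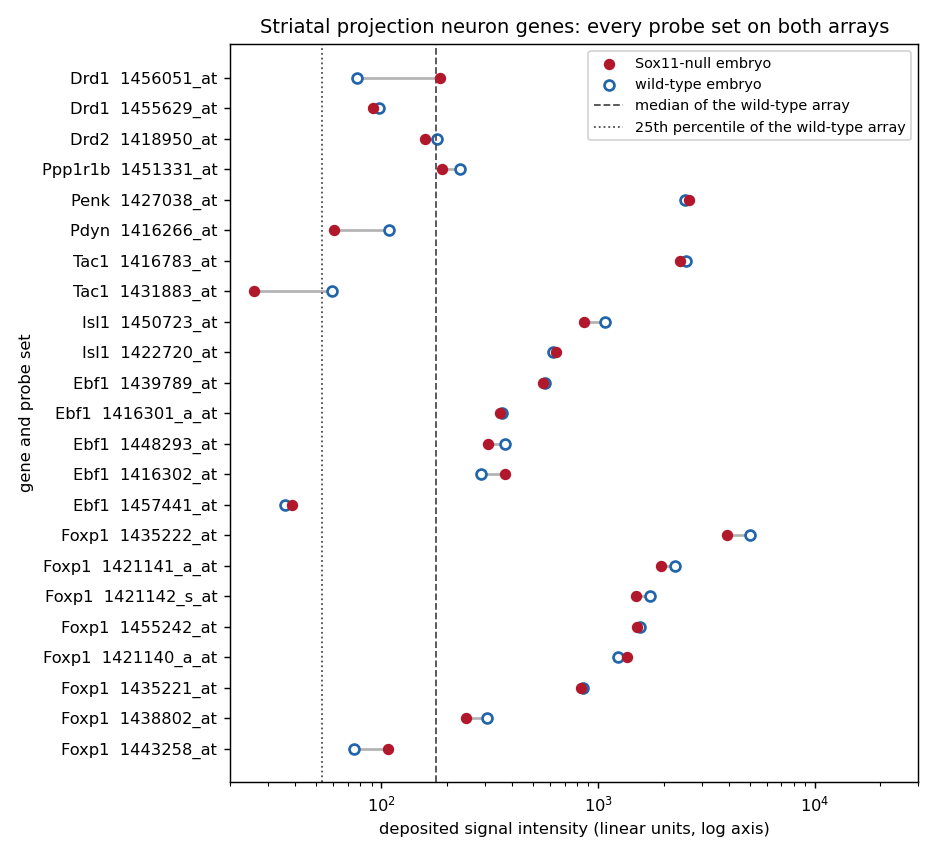
Deposited signal intensity (log axis) of all 23 probe sets of the 9 genes, with filled red points for the Sox11-null embryo and open blue points for the wild-type embryo, 1 array each. The dashed line is the median and the dotted line the 25th percentile of the wild-type array. The points of Drd1 1456051_at lie far apart and those of Drd1 1455629_at nearly coincide.

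Among the dopamine receptors, which couple dopamine to a rise (D1 class) or a fall (D2 class) of cyclic AMP, 2 were measured. Drd1 was beyond 1.5-fold by its brighter probe set, for which it was chosen, and at -0.062 by the other. Of all measured genes 6.3% were beyond 1.5-fold. Of those that reached the median on the null array only, as Drd1 did, 44.4% were at least 1.5-fold higher. Drd5, the other receptor of the D1 class, was not analysed here, for want of a single-gene probe set in the table used. Drd2 was at 159 in the null sample and 181 in the wild-type sample, a difference of -0.17. It reached the median on the wild-type array only, and a gene that enters in this way is lower in the null sample, or nearly so, by construction. The single-gene probe sets of Drd3 and Drd4 did not reach the median on either array. Drd3 was at 61.1 and Drd4 at 65.6 in the null sample, against 69.2 and 43.5 in the wild-type sample. Ppp1r1b was at 189.8 in the null sample and 229 in the wild-type sample, a difference of -0.25, and it reached the median on both arrays.

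Of the 3 neuropeptide precursor genes, Penk and Tac1 were nearly level between the samples and Pdyn was dim in both. Penk, the proenkephalin gene, was at 2627 in the null sample and 2504 in the wild-type sample, a difference of 0.089 or 1.06-fold. Tac1, the precursor gene of substance P, was at 2379.9 in the null sample and 2550.1 in the wild-type sample, a difference of -0.080. The samples thus differed little in either gene, 1 of each pathway. The second Tac1 probe set, 1431883_at, was dim, at 25.8 in the null sample, under the floor, and 59.3 in the wild-type sample. Without the floor this probe set would differ by -1.20 in the deposited signals, and with it by -0.16.

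Pdyn, the prodynorphin gene, was not measured by the rule above. Its only probe set was at 60.1 in the null sample and 109 in the wild-type sample, a difference of -0.84 or 1.79-fold lower. Pdyn and Drd1 are both genes of the direct pathway and had opposite signs by the brighter Drd1 probe set, both at dim signals. The other Drd1 probe set gave -0.062, so the opposite sign rested on the value for which Drd1 was chosen. Among all 18193 genes taken without the filter, 8.34% were at least 1.5-fold apart.

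The 3 transcription factor genes were represented by 15 probe sets, 13 of them measured, and none of the 15 was beyond 1.5-fold, against 10.7% of all measured probe sets and 12.0% of all single-gene probe sets, shares that leave few in a set of this size. Isl1, a LIM homeodomain factor, was at 864 in the null sample and 1073 in the wild-type sample with its brighter probe set, a difference of -0.29. Its other probe set gave 636 in the null sample and 621 in the wild-type sample, a difference of 0.055, so the 2 did not share a sign. Their mean was -0.12 ± 0.25 (SD over 2 probe sets read on the same arrays).

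Ebf1, a helix-loop-helix factor, was at 553 in the null sample and 568 in the wild-type sample with its brightest probe set, a difference of -0.018. With 1416301_a_at it was at 350.3 in the null sample and 361 in the wild-type sample. The other 2 measured probe sets ran in opposite directions, with 311 in the null sample and 371 in the wild-type sample for 1448293_at (-0.24), and 372 in the null sample and 287 in the wild-type sample for 1416302_at (0.39). The mean over the 4 measured probe sets was 0.028 ± 0.26 (SD over probe sets). The fifth probe set was under the floor on both arrays.

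Foxp1, a forkhead factor, had 8 probe sets, all read on the same 2 arrays, and 6 of them were lower in the null sample. By the brightest probe set of each gene, 6195 of the 12390 measured genes were below 0. The brightest Foxp1 probe set, 1435222_at, was at 3945 in the null sample and 5022 in the wild-type sample. Its difference was -0.33, the lowest value of the 8. The next, 1421141_a_at, was at 1946 in the null sample and 2253 in the wild-type sample (-0.19). The 7 measured probe sets ran from -0.33 to 0.15 with a mean of -0.13 ± 0.17 (SD over probe sets), and the pooled SD over 5155 genes with several measured probe sets was 0.39. The SD of the measured Foxp1 probe sets was thus below the pooled SD. The pooled SD takes in genes of all signal levels and is not the usual spread of 1 gene, so it does not tell whether Foxp1 was unusual. The spread of the Foxp1 probe sets does not measure how far their mean lay from 0. The dim probe set 1443258_at, not measured, gave 108 in the null sample and 74.9 in the wild-type sample, a difference of 0.54.

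Counted by the brightest probe set, 1 of the 8 measured members was beyond 1.5-fold, against 6.3% of all measured genes, and that member was Drd1, for which the set was named. The other 7 ran from -0.33 for Foxp1 to 0.089 for Penk. Of the 8 measured members, 6 were below 0, against 6195 of the 12390 measured genes. The median of the members was -0.12, beside 0 for all measured genes. The sign of Drd1 was set by its choice and the filter, and that of Drd2 nearly so by the filter. Isl1 was below 0 by 1 of its 2 measured probe sets only. A lean of the members to either side was not tested. Among probe sets, 1 of 18 measured ones was beyond 1.5-fold, against 10.7% of all measured probe sets. Over all 23 without a filter, 2 were beyond it, Drd1 1456051_at and Pdyn 1416266_at, against 12.0% of all single-gene probe sets. Penk, Tac1, Isl1, Ebf1 and Foxp1 lay in the middle or highest of the 3 groups by level, and Drd1, Drd2 and Ppp1r1b in the lowest. Members had 10 measured probe sets other than the brightest of their gene, and 0 of these were beyond 1.5-fold. Over all measured genes 17.3% of such probe sets were beyond it, a share that leaves few in 10. All 10 belong to Isl1, Ebf1 and Foxp1 and were counted above with the transcription factor probe sets.

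**Figure D2:**
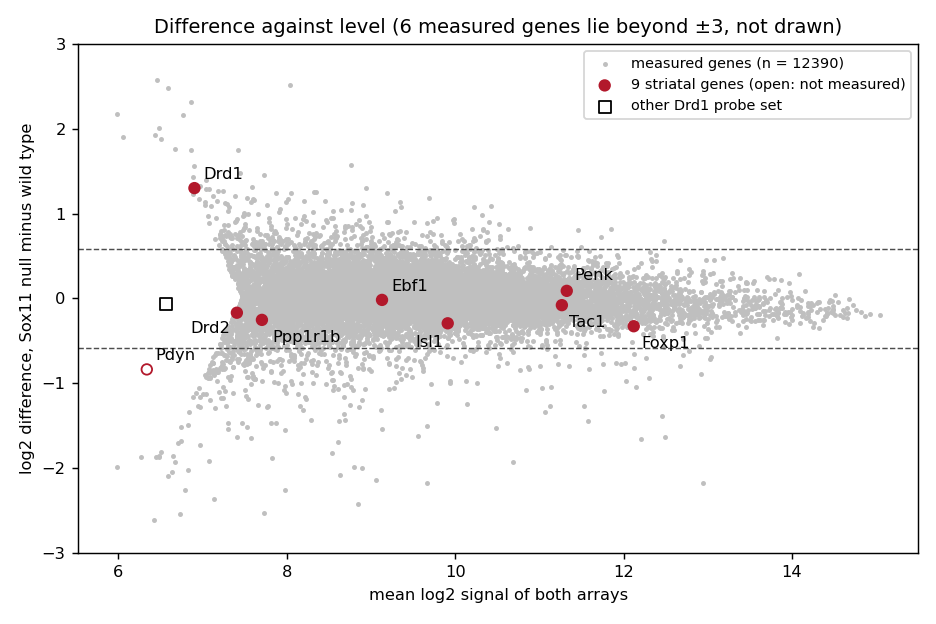
Log2 difference (Sox11 null minus wild type) against the mean log2 signal of both arrays for the measured genes (grey, 12390 less 6 beyond the axis limits of -3 and 3) and the 9 striatal genes by their brightest probe set (red, with Pdyn open because it was not measured). The square is the other Drd1 probe set, and the dashed lines mark 1.5-fold. At the left edge the filter leaves only genes far from 0, and Drd1 at 1.30 lies there, while the 7 other measured members lie between the dashed lines.

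Most genes that share the cells or the signalling of the 9 members were within 1.5-fold, as were most of all measured genes. Over the 10 lists of related genes, 54 genes other than the members were measured, 22 above and 32 below 0 with a median of -0.039, and 1 of them (1.85%) was beyond 1.5-fold, against 6.3% of all measured genes. At that background, lists of this size hold few such genes or none, so a count of 0 in 1 list says nothing particular about it. Among direct pathway genes, Drd1 was the only one of 6 measured genes beyond 1.5-fold and the list median was -0.049. The mitochondrial carrier gene Sfxn1 was at 1716 in the null sample and 1945 in the wild-type sample (-0.16), and Eya1 was at 618 in the null sample and 561 in the wild-type sample (0.16). The muscarinic receptor gene Chrm4, which marks direct pathway neurons in the adult, was under the floor on both arrays. Of indirect pathway genes, none of 4 measured was beyond 1.5-fold, with a median of -0.11. Besides the members these were the glutamate receptor gene Grik3 (957 in the null sample, 1010.4 in the wild-type sample, -0.059) and the homeobox gene Six3 (324 in the null sample, 391 in the wild-type sample, -0.25).

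All 19 measured genes of striatal projection neurons at large were within 1.5-fold by the brightest probe set, with a median of -0.084. Other measured probe sets were beyond it for Ptpn5 (1.065), Arpp21 (0.68) and Adcy5 (-1.01), and for Meis2 and Bcl11b below. Of all measured genes 6.3% were beyond it, a share that leaves few or none in lists of this size. The factor genes Meis2 (4202 in the null sample, 5136 in the wild-type sample, -0.27) and Bcl11b (2204 in the null sample, 2394 in the wild-type sample, -0.10) are also expressed by cortical neurons, and another measured probe set gave 1.19 for Meis2 and 0.60 for Bcl11b. Pde1b, a calmodulin-dependent phosphodiesterase, was highest at 0.48, and Pde10a, a phosphodiesterase enriched in striatal neurons, lowest at -0.41. All 10 measured genes of the ganglionic eminence, where these neurons are born, were within 1.5-fold as well, with a median of -0.023. The GABA-synthesis gene Gad1 was at 2686 in the null sample and 2202 in the wild-type sample (0.31), and the homeobox gene Dlx5 was at 644 in the null sample and 746 in the wild-type sample (-0.19).

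Of 11 measured genes of dopamine synthesis and signalling none was beyond 1.5-fold, against 6.3% of all measured genes, and their median was -0.029. At that share a count of 0 in 11 says nothing particular about these genes. The stimulatory G protein gene Gnas, at 16099 in the null sample and 16548 in the wild-type sample, differed by -0.020. The phosphatase gene Ppp1ca, whose product DARPP-32 inhibits, was at 6607 in the null sample and 6474 in the wild-type sample (0.049). The D1-coupled G protein gene of the striatum, Gnal, differed by -0.029 and the adenylyl cyclase gene Adcy5 by 0.19. Other measured probe sets gave 1.41 for Gnas, 0.71 for Prkar2b and -1.01 for Adcy5, so the value of these genes also depended on the probe set.

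Among opioid and tachykinin precursors and receptors, Pomc was the only one of 6 measured genes beyond 1.5-fold, against 6.3% of all measured genes. Pomc, the precursor gene of corticotropin and beta-endorphin, was at 299 in the null sample and 627 in the wild-type sample, a difference of -1.05, and its other probe set gave -1.24. Pituitary markers differed in both directions. Of 4 measured pituitary genes, Pomc included, 3 were beyond 1.5-fold lower, against 6.3% of all measured genes beyond it either way. Gh was at 1894 in the null sample and 4615 in the wild-type sample. Cga was at 138 in the null sample and 342 in the wild-type sample. Cga reached the median on the wild-type array only, so it was lower, or nearly so, by construction. The homeobox gene Pitx1 was within 1.5-fold (354 in the null sample, 299 in the wild-type sample, 0.26). Of those not measured, Tshb was at 116 in the null sample and 59.3 in the wild-type sample (0.99), and Tbx19 (0.35) and Lhb (0.17) were above 0 while Lhx3 was below it (-0.51). The summed signal of the 9 pituitary genes was 3167 in the null sample and 6354 in the wild-type sample, most of it from Gh, and prolactin (Prl) was under the floor on both arrays. Drd2 and Isl1, which pituitary cells express, had differences of -0.17 and -0.29, and the part of pituitary cells in them was not tested. The nociceptin precursor gene Pnoc (427 in the null sample, 421 in the wild-type sample) and the receptor gene Oprl1 (618 in the null sample, 449 in the wild-type sample) were within 1.5-fold, although another measured probe set of Oprl1 gave 1.05.

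The paralogs of the transcription factors and the cortical neuron genes gave no value beyond 1.5-fold by the brightest probe set. With 6.3% of all measured genes beyond it, lists of this size hold few or none. Of the 8 measured factor genes, Foxp4 was lowest (276 in the null sample, 389 in the wild-type sample, -0.48) and Ebf3 highest (1342 in the null sample, 1211 in the wild-type sample, 0.17, with 0.61 by another measured probe set). Another measured probe set gave 0.74 for Ebf2. Foxp2 was at 1395 in the null sample and 1568 in the wild-type sample (-0.15). Of 9 measured cortical projection neuron genes 8 were below 0, with a median of -0.16, against 6195 of the 12390 measured genes below 0. The exception was Fezf2 (217 in the null sample, 162 in the wild-type sample, 0.44), which reached the median on the null array only. A lean of this list was not tested. Neurod6 was at 2723 in the null sample and 3019 in the wild-type sample (-0.13), and Bcl11b was -0.10. Other measured probe sets of cortical genes were beyond 1.5-fold, at 1.996 for Cux1, whose brightest gave -0.26, and at -0.85 for Neurod2, whose brightest gave -0.16. The 2 measured cholinergic neuron genes, Ache (0.13) and Lhx8 (0.003), were within 1.5-fold. Chat, the enzyme gene that defines cholinergic neurons, was not measured.

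Markers of other cells that express some members differed in places. Of all measured genes 6.3% were beyond 1.5-fold either way, a share that leaves few or none in lists of this size. Of 5 measured olfactory sensory neuron genes, the membrane protein gene Stoml3 (146 in the null sample, 435 in the wild-type sample) and Gng13 (167 in the null sample, 339 in the wild-type sample) were lower and 3 were within 1.5-fold, and the sum over 7 genes was 2481 in the null sample and 3131 in the wild-type sample. Stoml3 and Gng13 reached the median on the wild-type array only, so they were lower, or nearly so, by construction. Another probe set gave -1.28 for Stoml3, and that of Gng13 was under the floor on both arrays. Of 4 peripheral neuron genes Avil was lower (141 in the null sample, 264 in the wild-type sample) and 3 were within 1.5-fold, and the sum over 5 genes was 994 in the null sample and 1269 in the wild-type sample. Avil, too, reached the median on the wild-type array only. None of 5 motor neuron genes was measured, with sums of 385 in the null sample and 461 in the wild-type sample, and Mnx1 was under the floor on both arrays. The B-cell genes summed to 558 in the null sample and 615 in the wild-type sample over 7 genes, with Pax5 alone measured, and the 4 retina genes to 709 in the null sample and 688 in the wild-type sample, with Otx2 alone measured. The 6 fibroblast and meningeal genes, all within 1.5-fold by the brightest probe set, summed to 64760.5 in the null sample and 62625 in the wild-type sample. The part of these cells in the values of Ebf1, Isl1 and Foxp1 was not tested. Some markers within 1.5-fold by the brightest probe set were beyond it by another, measured or not. Such probe sets reached -1.76 for Omp, 1.86 for Adcy3, 1.22 for Prph, -0.84 for Dbh and 1.14 for Pdgfra.

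**Figure D3:**
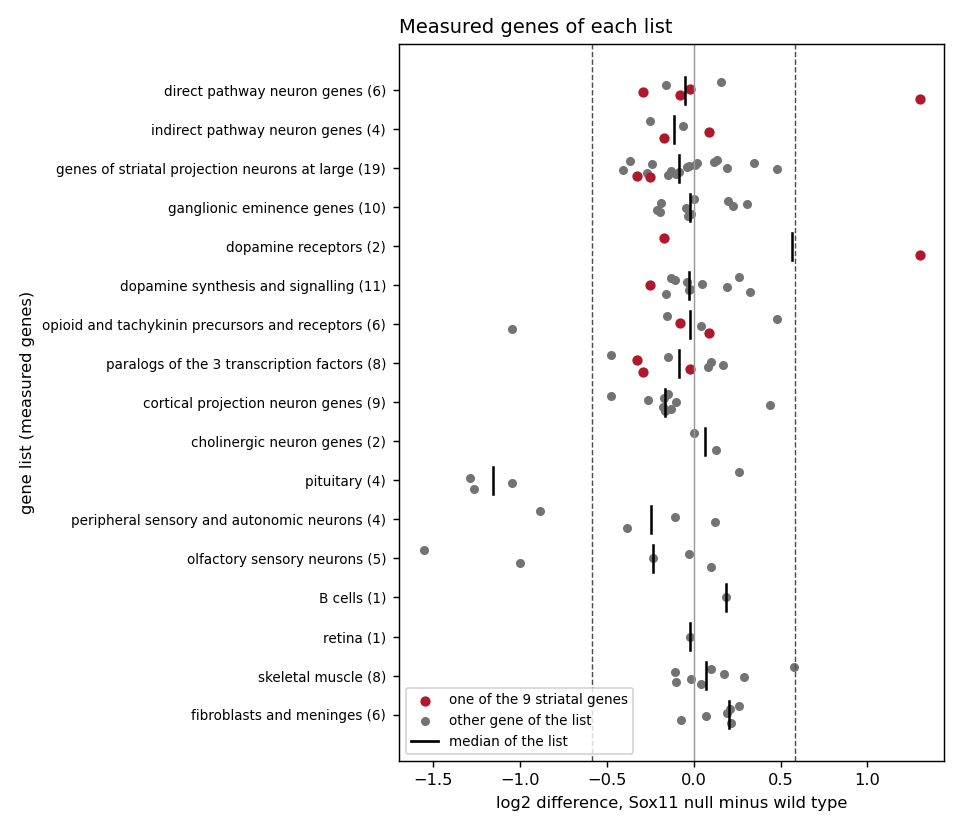
Log2 difference (Sox11 null minus wild type) of each measured gene, by list, with the number of measured genes in brackets. Red points are the 8 measured striatal genes, grey points the other genes, black bars list medians and dashed lines 1.5-fold. Drd1 is the only point right of the 1.5-fold line, and left of the lower line lie Pomc, 3 of 4 pituitary genes (Pomc again included), 2 of 5 olfactory and 1 of 4 peripheral neuron genes. Of these, Cga, Stoml3, Gng13 and Avil reached the median on the wild-type array only. Of all measured genes 6.3% were beyond 1.5-fold either way.

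The genes whose pair of signals lay nearest to that of Drd1 (Euclidean distance between log2 signals over the 2 arrays) were Zfp13, Brinp2, Muc4, Ppard and Apobec3, at distances of 0.058 to 0.19. Zfp13, a zinc finger gene, was at 179.7 in the null sample and 77.9 in the wild-type sample, and Brinp2, a neural gene, at 193 in the null sample and 72.9 in the wild-type sample. All 5 were dim in the wild-type sample, between 69.9 and 83.0. Likeness over 2 arrays is a likeness in a pair of values only. Muc4 and Ppard had further probe sets, and these were under the floor on both arrays.

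The position of Drd1 rested on a few choices of processing. With the floor raised to the median of each array its difference was 0.092, because 187 lies barely above that floor. With its dimmer probe set and no filter it was -0.099, and with both probe sets averaged and no filter 0.59. With 50 added to each signal and no floor it was 0.92. The other centring and normalization choices gave 1.28 to 1.49. Averaging probe sets before the floor was applied gave -0.67 for Tac1, because the second probe set then entered with its value without the floor, and with the filter kept Tac1 and not Drd1 was the 1 member beyond 1.5-fold. With each probe set floored before averaging Tac1 was at -0.15, and no member was beyond 1.5-fold. Drd1 was not measured under either mean with the filter kept, and without the filter the mean of its floored probe sets was 0.61.

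**Figure D4:**
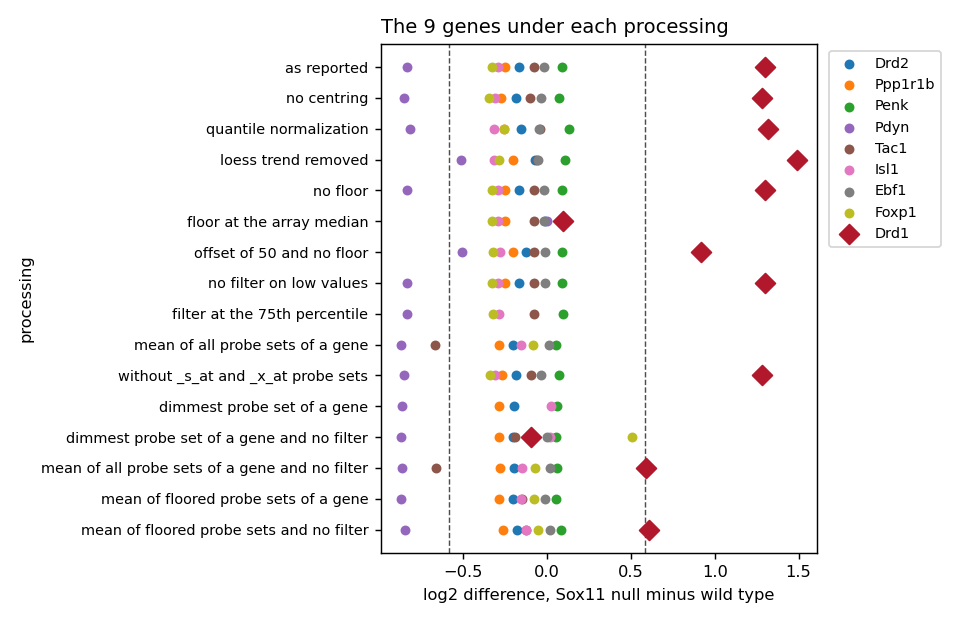
Log2 difference (Sox11 null minus wild type) of the 9 genes under each processing, with a red diamond for Drd1, circles for the other members and dashed lines at 1.5-fold. A gene has no point where it was not measured, except Pdyn, which is drawn whatever the filter. In most rows where Drd1 has a point it lies between 0.92 and 1.49, always by its brighter probe set. It lies at 0.59 or 0.61 with the mean of its probe sets and no filter. It lies at 0.092 where the floor was the array median, and at -0.099 with the dimmest probe set and no filter.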

How the data were processed

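The 2 samples were measured on 1 array each. The deposited table holds 1 linear signal intensity per probe set, made with Affymetrix Expression Console per the submitters' processing notes, with no summary algorithm, version or filter stated there. Both columns had the same mean after trimming 2% at each end (500.002), as scaling to a common target gives. Of 45101 rows, 64 controls were left out and 34945 probe sets named 1 gene. Of these, 34741 had their symbols updated by gene number through a RefSeq table of GRCm38.p6.

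Signals were taken to log2, and the null array was centred on the median difference of measured genes (-0.020). Values were then floored at the 25th percentile, and genes were read by their brightest probe set (Python 3.11.15, pandas 2.3.3, statsmodels 0.14.6). The code was tested on simulated data. No gene was tested, since each genotype has 1 array, the number of arrays limits the precision, and genes were counted at 1.5-fold and 2-fold.

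The members and lists were chosen with earlier results of these data known. Named genes are all member probe sets, the genes of each list beyond 1.5-fold (up to 5 each way) or else the 2 brightest, Sox11, and the 5 genes nearest to Drd1. Others were chosen after their values were seen. The alternatives were 11 settings and 4 more chosen after seeing the data.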

Additional observations from a re-analysis of the deposited data

How the results depend on the processing

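Of 11 other settings, 7 gave 1 member beyond 1.5-fold, as reported, but with the mean over probe sets that gene was Tac1 and not Drd1. The number was 0 with each array's median as the floor, with the filter at the 75th percentile and with the dimmest probe set of each gene, and 2 (Drd1 and Pdyn) with no filter. The difference of Drd1 was 1.28 to 1.49 with no centring, quantile normalization, a loess trend removed, no floor, no filter, or without the _s_at and _x_at probe sets, 0.92 with an offset of 50, and 0.092 with the median as the floor. It had no value where the filter left it out (75th percentile, mean or dimmest probe set). In 4 settings chosen after seeing the data, it was, without the filter, -0.099 with the dimmest probe set and 0.59 with the mean, where 3 members (Drd1, Pdyn and Tac1) were beyond 1.5-fold. With probe sets floored before averaging it was 0.61 without the filter, where 2 members (Drd1 and Pdyn) were beyond 1.5-fold, and with the filter it had no value and 0 members were. The 781 of all measured genes beyond 1.5-fold became 1518 with no filter and 273 with the filter at the 75th percentile. Each value was called stable when it moved by less than 0.39, the pooled SD of probe sets of 1 gene. By that measure Drd2, Ppp1r1b, Penk, Isl1 and Ebf1 were stable in every setting that gave a value, Foxp1 in all but the dimmest probe set without a filter (0.51), and Tac1 in all but the means taken before the floor (-0.67 and -0.66). The reported values of these genes were all smaller than 0.39 in size, so stable does not mean that a sign held. Isl1 ran from -0.319 to 0.023 and Ebf1 from -0.056 to 0.019. Drd2, Ppp1r1b and Penk have 1 probe set each, so settings that change the probe set could hardly move them. Pdyn, read without the filter, was at 0 where the median was the floor. The lists of related genes held 0 to 2 genes beyond 1.5-fold in those 11 settings. No paired analysis was possible because each genotype has 1 array. Signal over background limits Drd1, Drd2, Ppp1r1b and Pdyn most, since no detection call was used.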

Other observations

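Several genes related to the striatal members were within 1.5-fold by their brightest probe set and beyond it by another measured one. Over the 10 lists, 26 genes that are no members had 49 further measured probe sets, of which 13 were beyond 1.5-fold (26.5%), against 17.3% of the 8272 such further probe sets of all measured genes. Of the 13, 10 were higher and 3 lower in the null sample, and of all 1433 beyond 1.5-fold, 1119 were higher and 314 lower. Ptpn5, a striatum-enriched phosphatase gene, differed by 0.022 with its brightest probe set, and with 1425130_a_at it was at 216 in the null sample and 105 in the wild-type sample (1.06). Meis2 differed by -0.27 with its brightest probe set and by 1.19 with 1440091_at, at 1102 in the null sample and 490 in the wild-type sample. Adcy5, the main adenylyl cyclase of striatal neurons, differed by 0.19 and by -1.01 (215 in the null sample and 440 in the wild-type sample with 1447696_x_at). Gnas was level with its brightest probe set and differed by 1.41 with 1427789_s_at, at 377 in the null sample and 144 in the wild-type sample. Pomc had the same direction with both of its probe sets. RNA quality differed as well. The beta-actin control had a 3′ signal over 5′ signal of 1.16 in the null sample and 1.78 in the wild-type sample, and the Gapdh control had 0.816 in the null sample and 0.922 in the wild-type sample. Its part in these values, and in that of the brighter Drd1 probe set, was not tested.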
